A study of Mus musculus with 4 samples.

Results

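The genes described here are the mouse receptors that bind the constant part of IgG, together with the signalling chain they share. They were taken by name: Fcgr1, Fcgr3 and Fcgr4 (activating receptors), Fcgr2b (the inhibitory receptor), Fcer1g (the common gamma chain) and Fcgrt (the neonatal Fc receptor). All 6 were found among 54532 genes, after the Ensembl identifiers in the files were matched to GENCODE M21 symbols. RNA came from brain of C57BL/6 mice, in tissue the titles call extratumoral, with 4 libraries in all and 1 in each group. The young naive and old naive groups had no treatment and are labelled with no tumor, and the young tumor-bearing and old tumor-bearing groups had received 50000 GL261 cells, a mouse glioma line, in the brain, with tissue taken on day 21. Young mice were 8 to 12 weeks old. Old mice are described as 8 to 90 weeks old, which leaves their lowest age the same as that of the young mice. The naive samples carry the GL261 cell line tag too, and their group tag was followed. With 1 library a group no difference could be tested against the spread between mice, and how many mice each library held is not given in the sources used here.

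IgG receptors sit mainly on myeloid cells, and in the brain they are best known from microglia and infiltrating macrophages. Activating receptors need the common gamma chain, whose cytoplasmic ITAM is phosphorylated when antibody complexes cross-link them and then recruits the kinase Syk. The inhibitory receptor carries its own ITIM, which recruits the phosphatase encoded by Inpp5d and dampens the same signal, while the neonatal receptor pairs with B2m and returns IgG from endosomes to the blood or tissue fluid.

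The values were FPKM, fragments per kilobase of exon, scaled to depth, so levels of different genes can be set side by side within a library. Where 4 values of a gene follow each other, they stand in the order young naive, then young tumor-bearing, then old naive, then old tumor-bearing tissue. The depth that the FPKM were divided by came out at 15646445 to 23253750 fragments. Fragments recovered in genes numbered 19557451 to 23261886, so the divisor was 0.798 to 0.914 times that number in 3 libraries and 1.19 times in the old tumor-bearing one. The old tumor-bearing library therefore stood apart in scaling, and it also held 2.12% mitochondrial fragments against 4.72% to 5.51% in the other libraries. Neuron markers, a check on the brain label, summed to 791 to 1060 FPKM in those and to 245 FPKM in the old tumor-bearing library. A list of 7 cell-cycle genes, which dividing cells carry, summed to 1.03 FPKM in young naive, 6.7 in young tumor-bearing, 0.538 in old naive and 143 in old tumor-bearing tissue. A list of 6 choroid plexus markers summed to 7.81 FPKM in old naive tissue and to 398 to 460 FPKM elsewhere. These differences in tissue content move with the groups and cannot be told apart from tumor or age with 1 library a group.

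Fc receptor genes were highest in the old tumor-bearing library, except Fcgrt, which was lowest there as deposited but near level with or above old naive tissue under other scalings. Fcgr3, a low-affinity activating receptor, was listed at 5.89 FPKM in young naive, 8.09 in young tumor-bearing, 7.4 in old naive and 26.8 in old tumor-bearing tissue. Fcgr1, the high-affinity receptor, was at 1.34, 2.8, 1.58 and 10.4 FPKM in the same order. Both were thus lowest in the naive libraries, higher in the young tumor-bearing one and higher again in the old tumor-bearing one. Fcgr4, an activating receptor of myeloid cells, was at 0.0389, 1.43, 0.458 and 19.8 FPKM, which rests on 1, 36, 9 and 577 fragments. Its naive levels are therefore known only roughly. Fcer1g was at 10.3, 15.8, 11.3 and 65.1 FPKM, the highest of the set in each library, although in young naive tissue it stood level with Fcgrt within counting error (1.01-fold apart, 95% interval 0.846 to 1.2). Fcgr2b was at 0.667, 1.68, 1.1 and 9.6 FPKM, from 79, 195, 100 and 1293 fragments. Fcgrt, an endothelial and myeloid gene, was at 10.2, 9.3, 9.24 and 7.06 FPKM. All intervals given here cover counting error only, and PCR copies cannot be separated from independent molecules. In bulk tissue, fewer cells of a type and less RNA per cell cannot be told apart.

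**Figure D1:**
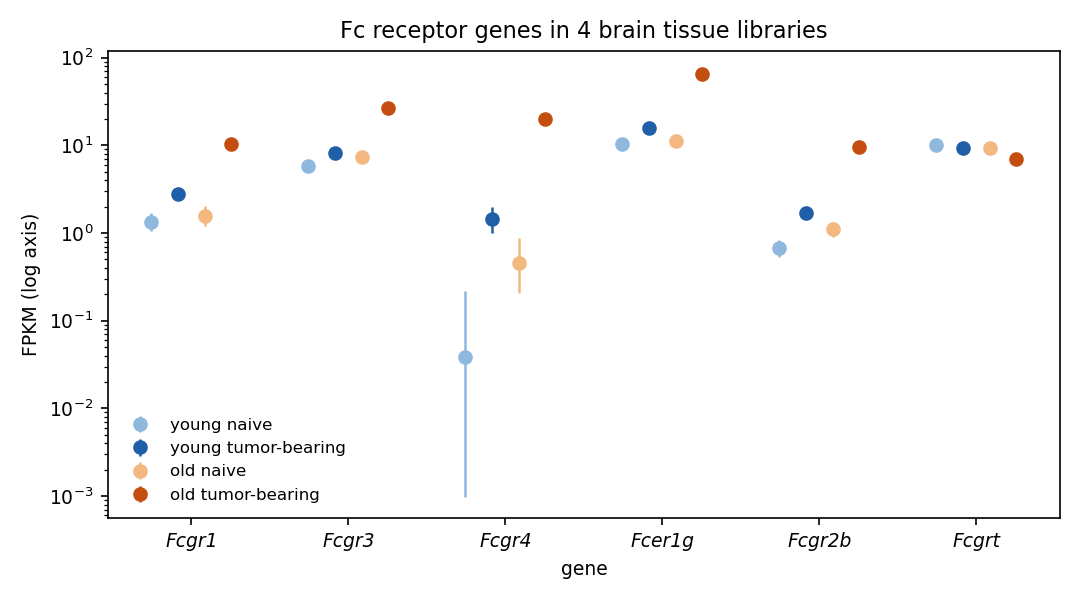
FPKM (log axis) of the 6 Fc receptor genes in the 4 libraries, 1 point a library, with 95% intervals for counting error from the recovered fragments. The old tumor-bearing library is the highest for 5 genes and, as deposited, the lowest for Fcgrt (log2 -0.38 against old naive tissue, and -0.01 to 0.18 under other scalings), and the long bar of Fcgr4 in young naive tissue reflects 1 fragment.

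In young mice, 3 of the 6 genes were at least 2-fold higher in the tumor-bearing than in the naive library and none was at least 2-fold lower. By the same rule (2-fold on log2 of FPKM + 0.1, with 1 library or both at 1 FPKM or above), 5.05% of all measured genes were higher and 1.85% lower, and 2.32% and 0.35% of protein-coding genes. The 3 were Fcgr4 (36.8-fold, 6.2 to 1490), Fcgr2b (2.52-fold, 1.93 to 3.32) and Fcgr1 (2.09-fold, 1.56 to 2.81). Fcer1g was 1.54-fold higher (1.27 to 1.86) and Fcgr3 1.37-fold (1.15 to 1.65), both beyond counting error but short of 2-fold. The fold of Fcgrt was 0.913 (0.794 to 1.05), within counting error. The median log2 ratio was 0.81 over the 6 genes and -0.01 over all genes measured. Fcgr1 and Fcgr2b passed 2-fold narrowly, at log2 ratios of 1.01 and 1.22. With median-of-ratios scaling Fcgr1 was at 0.97, which leaves 2 genes, and with a pseudocount of 1 only Fcgr4 stayed above 2-fold.

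In old mice, 5 of the 6 genes were at least 2-fold higher in the tumor-bearing library, while 20.5% of all measured genes were higher and 31.4% lower (19.3% and 29.7% of protein-coding genes). Fcgr4 differed most, 43.1-fold (22.6 to 94.8), followed by Fcgr2b at 8.7-fold (7.09 to 10.8) and Fcgr1 at 6.59-fold (5.09 to 8.66). The gamma chain Fcer1g was 5.74-fold higher (4.86 to 6.83) and Fcgr3 3.62-fold (3.11 to 4.23). Fcgr3, the most abundant receptor in naive tissue, thus had the smallest increase of the 4 receptors in both ages. The median log2 ratio was 2.58 over the 6 genes and -0.31 over all genes. Fcgrt was 1.31-fold lower (1.12 to 1.53), but this direction depended on the scaling: its log2 ratio was -0.38 as deposited and 0.04, 0.18, -0.01 and 0.1 under 4 other scalings. The other scalings moved the median log2 ratio of all genes by 0.42 to 0.64, and raised the ratios of the other 5 genes: they add 0.38 to 0.58 to each log2 ratio of this comparison. The split of all genes was 3381 higher and 5162 lower as deposited, and 4711 and 3598 with equal FPKM totals, 5425 and 3265 by fragments in genes, 4696 and 3900 by median of ratios, and 5095 and 3498 without mitochondrial genes and the 50 highest.

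Between the naive libraries, old over young, none of the 5 measured genes passed 2-fold (all genes: 6.7% higher, 4.93% lower; protein-coding genes: 3.23% and 3.07%). As deposited, Fcgr2b was 1.65-fold higher in old tissue (1.22 to 2.25) and Fcgr3 1.26-fold (1.03 to 1.53). Fcgr1 at 1.18-fold (0.827 to 1.68), Fcer1g at 1.1-fold (0.883 to 1.37) and Fcgrt at 0.907-fold (0.781 to 1.05) lay within counting error. Fcgr4 lay below 1 FPKM in both libraries, with 9 fragments against 1 (11.8-fold, 1.63 to 515). Of the measured genes, the difference between the naive libraries was thus largest for Fcgr2b. The other scalings multiply each of these folds by 0.854 to 0.98. Except by median of ratios, the Fcgr3 interval then includes 1 and that of Fcgrt lies below 1. Microglia markers had a median log2 ratio of 0.35 here. Set against Csf1r, a microglia marker, Fcgr2b was 1.17-fold (0.869 to 1.59) and Fcgr3 0.892-fold (0.728 to 1.09), both within counting error.

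Between the tumor-bearing libraries, 5 of 6 were at least 2-fold higher in old tissue (all genes: 19% higher, 29.8% lower; protein-coding genes: 17.5% and 27.9%). These were Fcgr4 (13.8-fold, 9.84 to 19.9), Fcgr2b (5.7-fold, 4.9 to 6.66), Fcer1g (4.11-fold, 3.61 to 4.69), Fcgr1 (3.72-fold, 3.1 to 4.49) and Fcgr3 (3.31-fold, 2.9 to 3.79). Fcgrt was 1.32-fold lower on the deposited scale, and near level by fragments in genes (log2 -0.02). This comparison shares its libraries with the tumor comparisons above, so it is not a separate measurement. The split of all genes was 3139 higher and 4933 lower as deposited, and 3668 and 4421 with equal FPKM totals. It was 4587 and 3594 by fragments in genes, 4568 and 3439 by median of ratios, and 4318 and 3808 without mitochondrial genes and the 50 highest. For the naive libraries the split was 1032 and 759 as deposited, and 944 and 779 by median of ratios. It was 615 and 1019 with equal FPKM totals, 751 and 894 by fragments in genes, and 764 and 886 without mitochondrial genes and the 50 highest.

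The tumor difference of the old mice exceeded that of the young by a ratio of folds of 3.73 for Fcer1g (2.91 to 4.79), 3.45 for Fcgr2b (2.48 to 4.8), 3.16 for Fcgr1 (2.15 to 4.63) and 2.63 for Fcgr3 (2.08 to 3.33). All 4 intervals lay above 1, for counting error alone. For Fcgr4 the ratio of folds was 1.17 with an interval of 0.145 to 9.51, because of the single fragment in young naive tissue. For Fcgrt it was 0.837 (0.681 to 1.03) on the deposited scale, and its log2 difference of -0.25 turned to 0.12 to 0.26 under the other scalings.

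The receptors also differed in their shares of the fragments. Of the fragments of Fcgr1, Fcgr2b, Fcgr3 and Fcgr4 together (360, 657, 374 and 3578), Fcgr3 held 58.1% (52.8 to 63.2), 42.8% (39.0 to 46.7), 53.7% (48.5 to 58.9) and 30.2% (28.7 to 31.7). Fcgr4 held 0.278%, 5.48%, 2.41% and 16.1%, and Fcgr2b 21.9%, 29.7%, 26.7% and 36.1%. Fcgr1 stayed between 17.1% and 22.1%. A lower share of Fcgr3 thus went with a higher share of Fcgr4 and Fcgr2b in both tumor-bearing libraries. These shares do not depend on how libraries are scaled, but a longer gene gives more fragments at the same FPKM. Set against Fcgr3 itself, Fcgr2b was higher by 1.84-fold (1.34 to 2.52) in young and 2.4-fold (1.87 to 3.1) in old tumor-bearing tissue over naive.

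**Figure D2:**
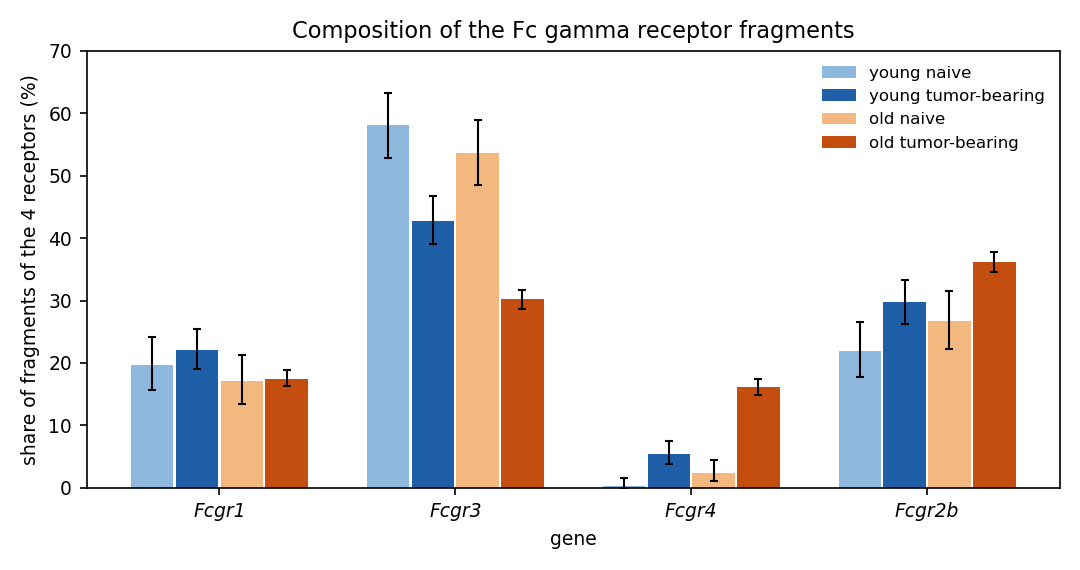
Share (%) of the fragments of the 4 Fc gamma receptors held by each receptor, 1 bar a library, with exact 95% binomial intervals for counting error. Fcgr3 is at 58.1% and 53.7% in the naive libraries and 30.2% in the old tumor-bearing one, where Fcgr4 reaches 16.1%.

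The summed FPKM of the 3 activating receptors was 10.9 times that of inhibitory Fcgr2b in young naive, 7.32 in young tumor-bearing, 8.55 in old naive and 5.93 in old tumor-bearing tissue. The ratio was lower with tumor in both ages, by a factor of 0.672 (0.497 to 0.909) in young and 0.694 (0.546 to 0.882) in old mice. The level of these ratios rests on the gene lengths used: with the longest coding transcript of each gene they were 8.23, 5.33, 6.42 and 4.12. The gamma chain stood at 1.42, 1.29, 1.2 and 1.14 times the summed activating receptors, and at 1.47, 1.38, 1.25 and 1.29 times with the longest coding transcripts, so its direction in old mice depends on the lengths used. From the highest level to the lowest, the order was Fcer1g, Fcgrt, Fcgr3, Fcgr1, Fcgr2b and Fcgr4 in 3 libraries. In the old tumor-bearing library it was Fcer1g, Fcgr3, Fcgr4, Fcgr1, Fcgr2b and Fcgrt. With the longest coding transcripts Fcgr2b stood above Fcgr1 in both old libraries. Besides Fcer1g and Fcgrt in young naive tissue, neighbours in these orders that did not differ beyond counting error were Fcgrt and Fcgr3, and Fcgr2b and Fcgr4, in young tumor-bearing tissue, and Fcgr1 and Fcgr2b in old tumor-bearing tissue.

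Fcgr2b and Fcgr3 are close copies of each other over part of their coding sequence, which bears on how their fragments are assigned. The best local alignment covered 509 coding bases, of 1023 in Fcgr2b and 804 in Fcgr3. Of the 509 bases, 491 (96.5%) were identical, and the longest shared run was 129 bases. Of the 100-base windows of Fcgr3 transcripts, 2.54% also occur in another gene, all in Fcgr2b. Of those of Fcgr2b 4.3% do, 251 of 5843 windows, spread over 15 other genes. Only 44 of them occur in Fcgr3, and 57 occur in the antisense gene Gm38204. None of the windows of Fcgr1, Fcgr4, Fcer1g or Fcgrt occurs in another gene. The following 120 coding bases of the 2 genes, from GENCODE M21 transcripts on mm10, lie in the part that encodes their antibody-binding domains. These bases were picked around the end of the longest shared run, so they are more alike than the aligned bases as a whole. They cross a splice junction, at chr1:170966644-170968042 for Fcgr2b and chr1:171054137-171057753 for Fcgr3, both on the minus strand, and the capital marks the 1 base that differs.
Fcgr2b: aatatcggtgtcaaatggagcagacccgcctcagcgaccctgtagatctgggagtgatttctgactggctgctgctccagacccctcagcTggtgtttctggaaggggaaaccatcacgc
Fcgr3: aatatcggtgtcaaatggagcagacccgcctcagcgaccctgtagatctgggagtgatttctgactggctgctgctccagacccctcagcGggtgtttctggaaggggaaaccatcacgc
How the authors' counting treated fragments that fit both genes is not given in the sources used here. By FPKM, Fcgr3 alone held 74.2%, 57.8%, 70.2% and 40.2% of the 4 receptors, and Fcgr2b and Fcgr3 summed held 82.6%, 69.8%, 80.7% and 54.7%, so the order of the libraries was the same either way.

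Fcgr2b, Fcgr4, Fcgr3 and Fcer1g lie within 276 kb on chromosome 1 (mm10, 170958617 to 171234365), while Fcgr1 lies on chromosome 3 (96282909 to 96293969) and Fcgrt on chromosome 7 (45092990 to 45103851). Of 26 other protein-coding genes within 200 kb, 19 were measured in the young comparison and none passed 2-fold. In the old comparison 22 were measured, 3 were higher and 3 lower, neither above the shares over all measured genes (20.5% higher, 31.4% lower). Arhgap30 was at 0.347, 0.908, 0.707 and 11.7 FPKM, and Apoa2, an apolipoprotein gene beside Fcer1g, at 0.638, 0.466, 0.595 and 2.56 FPKM. Cfap126 was also higher (log2 1.68), and Pcp4l1 (-2.27), Klhdc9 (-1.96) and Tomm40l (-1.43) were lower. The neighbours' median log2 ratio was -0.04 in young and -0.12 in old mice, against 0.45 to 3.46 and 1.84 to 5.15 for the 4 receptor and chain genes among them. Under the scalings that add most, Tomm40l no longer passed 2-fold.

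**Figure D3:**
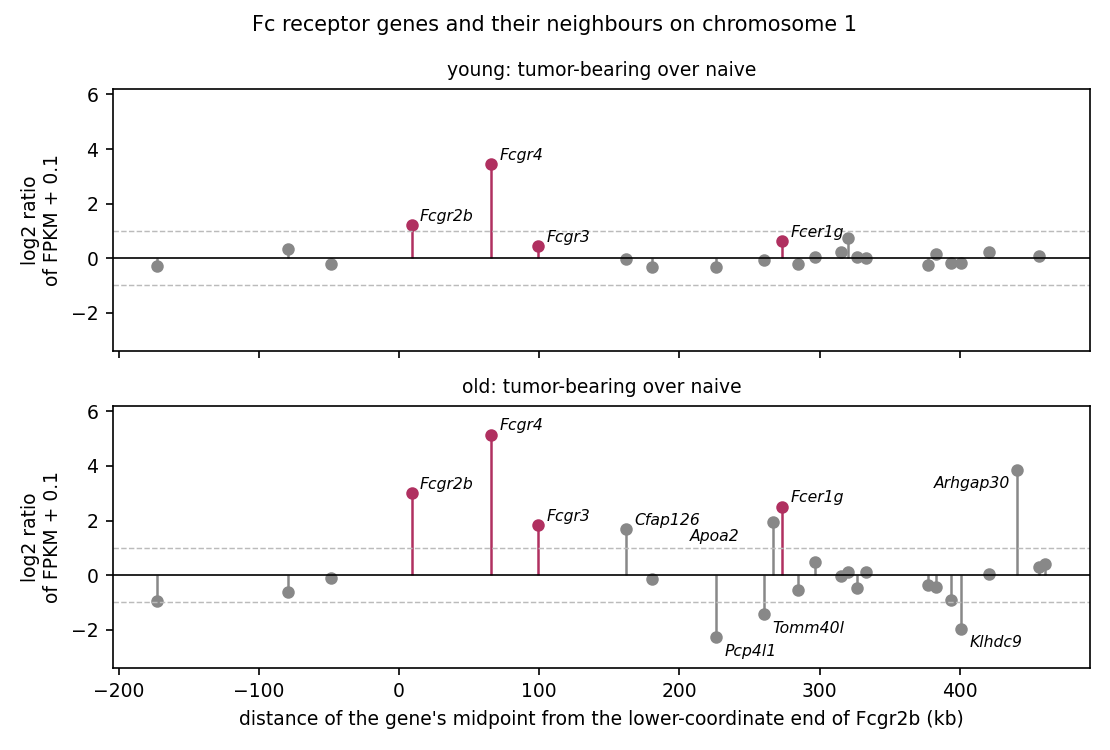
Log2 ratio of tumor-bearing over naive FPKM (+ 0.1) for measured protein-coding genes around the chromosome 1 cluster, by distance in kb, young above and old below, with dashed lines at 2-fold. Red points are Fcgr2b, Fcgr4, Fcgr3 and Fcer1g. Grey neighbours stay within 2-fold in young mice while 6 of 22 pass it in old mice (all genes: 20.5% higher, 31.4% lower).

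Upstream sequences of the receptor genes were scanned because 5 of the genes were higher together and interferon-regulated factors were higher beside them. For all 6 genes RefSeq start sites (GRCm38.p6) were matched, and the 250 bases before each were searched on both strands for a GAS (TTCNNNGAA), an interferon gamma-activated site, an ISRE core (GAAA, any 2 bases, GAAA), bound by IRF factors, and a PU.1 core (GAGGAA), bound by the myeloid factor encoded by Spi1. Shown are the sequences of Fcgr1 and Fcgr4, which hold matches, and of Fcer1g, which holds none, all 5′ to 3′ toward the start site with matches in capitals. The last 6 bases of Fcgr4 and 16 of Fcer1g before the RefSeq start, which lie inside the GENCODE gene, are not printed. The printed stretches lie at chr3:96293970-96294219 (minus strand), chr1:171018676-171018919 (plus) and chr1:171234366-171234599 (minus).
Fcgr1: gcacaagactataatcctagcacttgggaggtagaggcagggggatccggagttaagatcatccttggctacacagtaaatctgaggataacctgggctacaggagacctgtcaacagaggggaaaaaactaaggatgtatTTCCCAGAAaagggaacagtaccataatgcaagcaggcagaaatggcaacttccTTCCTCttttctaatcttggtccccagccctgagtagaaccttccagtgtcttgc
Fcgr4: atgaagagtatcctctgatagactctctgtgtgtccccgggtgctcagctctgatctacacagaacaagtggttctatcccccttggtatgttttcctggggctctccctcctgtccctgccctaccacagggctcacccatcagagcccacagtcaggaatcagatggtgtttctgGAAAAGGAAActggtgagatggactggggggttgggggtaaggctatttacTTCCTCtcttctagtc
Fcer1g: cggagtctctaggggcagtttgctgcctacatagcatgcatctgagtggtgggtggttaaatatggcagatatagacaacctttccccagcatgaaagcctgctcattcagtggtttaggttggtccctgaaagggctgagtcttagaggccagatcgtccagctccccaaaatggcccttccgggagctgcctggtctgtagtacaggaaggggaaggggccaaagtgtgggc
In Fcgr1 the GAS begins 109 bases before the start, and in Fcgr4 the ISRE core begins 73 bases before it. Both also hold a PU.1 core on the minus strand (printed as its reverse complement), 55 and 22 bases before the start. Fcgr3 holds a PU.1 core, and Fcgr2b and Fcgrt hold none of the motifs. Of 32851 promoters of the same length, 7.02% hold a GAS, 2.98% an ISRE core and 23.3% a PU.1 core. The motifs do not overlap each other, and a match is only a run of letters.

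Genes of the interferon and myeloid factor list were higher in 4 of 12 measured in young and 10 of 12 in old tumor-bearing tissue. Beside this list and those that follow, 5.05% of all measured genes were higher in young mice and 20.5% in old mice. By the same rule 1.85% and 31.4% were lower. Irf1 was at 1.11, 4.68, 2.36 and 70.9 FPKM and Irf7 at 0.699, 3.46, 1.25 and 45.0 FPKM. Spi1, which encodes PU.1, was at 1.43, 2.37, 1.8 and 8.62 FPKM. All 3 genes were highest in old tumor-bearing tissue, like the 5 receptor and chain genes. Ifng was listed at 0 in both naive libraries, at 0.0386 FPKM in young tumor-bearing and at 0.83 FPKM in old tumor-bearing tissue, below the 1 FPKM floor. Whether these factors have a part in the receptor levels was not tested.

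Genes that act behind the activating receptors were higher in 2 of 14 measured in young mice and in 15 of 22 in old mice, none lower (median log2 0.41 and 1.63). Syk, the kinase that binds the phosphorylated ITAM, was at 0.58, 0.817, 0.949 and 3.0 FPKM, and Fgr, a Src-family kinase of myeloid cells, at 0.0506, 0.129, 0.0827 and 2.08 FPKM. Arpc1b, a subunit of the actin-branching complex used in engulfment, was at 3.91, 8.24, 3.32 and 74.1 FPKM, the largest old log2 ratio of the list with the pseudocount (4.44), although without it Fgr differed by 25.2-fold (10.6 to 78.4) and Arpc1b by 22.3-fold (19.7 to 25.3). Rac2 was at 0.867, 1.61, 1.03 and 11.7 FPKM. Prkcd, counted as higher in old mice, was at 16.5, 18.5, 3.15 and 23.5 FPKM, so its call rests on a low old naive level. Of the inhibitory list, 1 of 8 measured was higher in young mice, and in old mice 7 of 12 were higher and 1 lower. The lower gene was Sirpa, which other cells also express, at 83.5, 88.0, 123 and 34.2 FPKM. Its old log2 ratio was -1.85, where neuron markers had a median of -2.54. Inpp5d, the phosphatase recruited by Fcgr2b, was at 1.63, 2.8, 3.38 and 5.42 FPKM and stayed within 2-fold in both ages as deposited (log2 0.74 and 0.67, the second past 2-fold under the other scalings), whereas Ptpn6, a tyrosine phosphatase, was at 1.31, 3.09, 1.62 and 16.5 FPKM and passed it in both.

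The NADPH oxidase, which engulfing cells switch on through these receptors, was higher in 1 of 3 measured subunits in young and in 5 of 5 in old mice. Cybb, its catalytic subunit, was at 0.16, 1.2, 0.341 and 8.88 FPKM, and Cyba at 4.28, 7.07, 5.91 and 37.0 FPKM. Of other receptors that use the gamma chain, Clec4n was higher in old mice (log2 5.23) and Oscar was lower in old mice (-1.9). Clec7a, a receptor for fungal glucans that does not depend on the gamma chain, was higher in both ages (0.204, 1.21, 0.218 and 17.9 FPKM). Of related adaptors, Tyrobp, the sister adaptor of microglia, was at 11.5, 15.5, 15.3 and 55.7 FPKM. Set against Tyrobp, Fcer1g was 1.14-fold (0.864 to 1.51) in young and 1.58-fold (1.25 to 2.0) in old mice, so only the old difference lay beyond counting error.

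Of the antibody genes, only the IgG heavy chains encode the part that these receptors bind. The whole list, with other classes and light chains, was higher in 2 of 4 measured in young mice. In old mice 8 of 10 were higher and 1 lower (median log2 1.88 and 2.85). Ighm, the IgM heavy chain, was at 9.91, 16.7, 23.4 and 24.5 FPKM (log2 0.07 in old mice). Igkc, the kappa constant region, was at 1.56, 13.3, 1.44 and 41.5 FPKM. Among IgG heavy chains, Ighg2b was at 0, 0.056, 0.0716 and 1.46 FPKM, the only higher call in old mice. Ighg1 and Ighg3 stayed below 1 FPKM throughout. Ighg2c was at 1.66, 1.85, 6.6 and 2.21 FPKM, higher in old than in young naive tissue (log2 1.93), and it was the 1 gene lower with tumor in old mice (log2 -1.54), a call that ends when scaled by fragments in genes. Beside them, B-cell markers summed to 2.4, 2.43, 0.865 and 23.7 FPKM, with 1 of 7 at 0 in each library but the old tumor-bearing one, where none was. Sdc1, which other cells also express, gave the largest part of each sum (1.27, 1.37, 0.487 and 14.1 FPKM). Whether cells of the B lineage account for these transcripts was not tested.

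Fcgrt's partner B2m was at 92.5, 277, 113 and 1680 FPKM, so the pair separated: set against Fcgrt, B2m was 3.28-fold higher (2.83 to 3.8) in young and 19.6-fold (16.6 to 23.0) in old tumor-bearing tissue. B2m also serves all class I molecules. Fcgrt's log2 ratios of -0.13 in young and -0.38 in old mice lay within the ranges of 8 endothelial markers, -0.45 to 0.27 and -1.54 to -0.19. Those markers had a median of 0.0 in young and -0.52 in old mice, where 3 of 8 were lower; the other scalings add 0.38 to 0.58 there too. Of the other Fc receptors, Trim21, the cytosolic one, was at 0.54, 1.56, 0.688 and 14.7 FPKM, and Fcrls, a microglial relative, at 9.72, 8.8, 9.75 and 7.37 FPKM, within 2-fold throughout.

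Levels of cell-type markers stood beside the receptor genes as follows. Of 10 microglia markers none was higher in either age and 1, Sall1, was lower in old tumor-bearing tissue as deposited (log2 -1.0, within 2-fold under the other scalings), with medians of 0.28 and 0.03 and a summed level of 108, 131, 136 and 149 FPKM. Pan-myeloid markers were higher in 1 of 9 in young and 8 of 10 in old mice, with summed levels of 161, 281, 237 and 1040 FPKM. Monocyte and macrophage markers were higher in 1 of 4 measured in young and 7 of 8 in old mice, and summed to 9.73, 16.4, 13.1 and 120 FPKM, with Ly6c2 at 0 in young naive tissue. Fn1 gave most of these sums (5.72, 8.78, 9.08 and 86.3 FPKM), and Cd163, below 1 FPKM throughout, went the other way in old mice, from 0.936 to 0.102 FPKM (9.15-fold lower, 5.06 to 17.9). In old mice the receptor genes other than Fcgrt lay above the microglia list. Fcgr1, Fcgr2b, Fcgr3 and Fcer1g lay within the ranges of both myeloid lists, and Fcgr4 (log2 5.15) above the highest pan-myeloid marker (3.17) and within the monocyte and macrophage range (0.84 to 5.17). Csf1r, the receptor for the growth factor of microglia and macrophages, was at 18.1, 25.3, 25.5 and 32.7 FPKM. The fragments of Csf1r did not come out whole in all 4 libraries, so intervals against it rest on rounded fragments. Set against Csf1r, Fcgr3 was 0.985-fold (0.817 to 1.19) and Fcer1g 1.1-fold (0.908 to 1.34) in young mice, within counting error. There Fcgr1 was 1.5-fold (1.12 to 2.0), Fcgr2b 1.81-fold (1.38 to 2.36) and Fcgr4 26.4-fold (3.61 to 193), the last from 1 fragment in young naive tissue. In old mice the same ratios were 2.82 for Fcgr3, 4.48 for Fcer1g, 5.14 for Fcgr1, 6.79 for Fcgr2b and 33.7 for Fcgr4. Natural killer cell markers, from a cell type that also carries Fcgr3, summed to 1.92, 3.56, 0.239 and 32.6 FPKM, with 6 of 8 at 0 in young naive and none at 0 in old tumor-bearing tissue. Eomes gave most of the young naive sum (1.88 FPKM). Gzmb (17.2 FPKM), Nkg7 (8.52) and Prf1 (3.28), which T cells can also express, gave most of the old tumor-bearing one. There Klrd1 was at 1.81 FPKM, and Ncr1 (0.642), Klrb1c (0.349) and Klre1 (0.32) lay below 1 FPKM. Mast cell markers, from a cell type that carries Fcer1g, summed to 11.6, 13.5, 5.92 and 11.9 FPKM, but Kit, which other cells also express, gave most of the first 3 sums (10.6, 12.5, 5.6 and 1.89 FPKM). In old mice Kit was lower with tumor (log2 -1.52), while Cpa3, Tpsb2, Mcpt4 and Cma1 were higher, at 1.47 to 3.06 FPKM from 0 to 0.117. The part of each cell type, and of the cell-cycle genes, in the receptor levels was not tested.

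**Figure D4:**
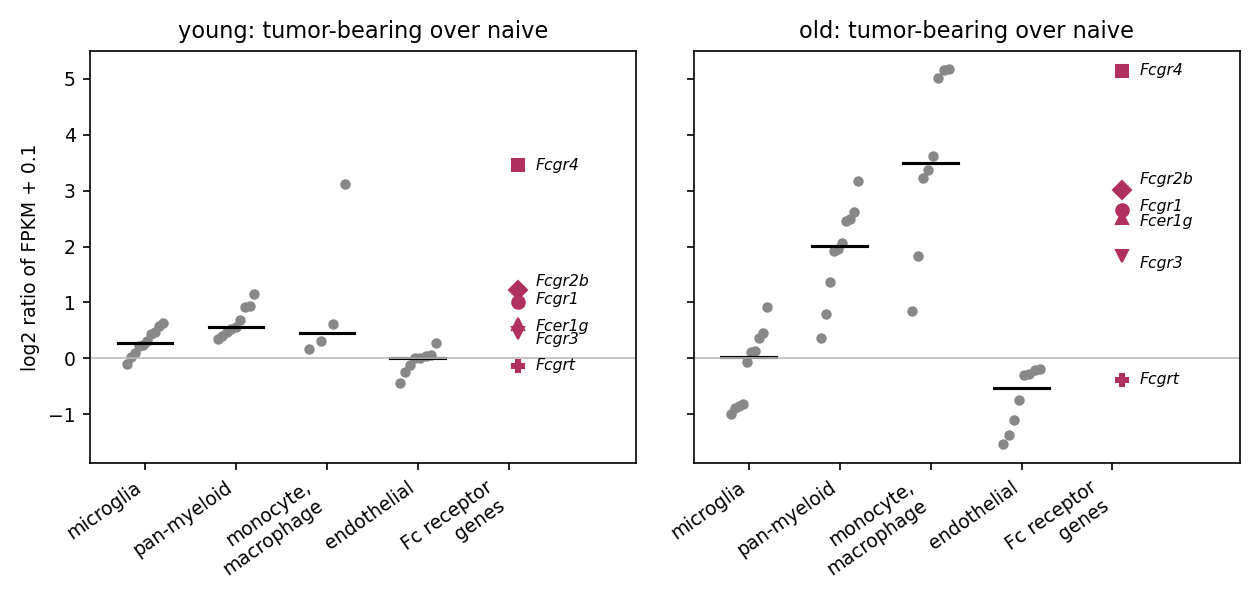
Log2 ratio of tumor-bearing over naive FPKM (+ 0.1) for measured marker genes (grey points, black bar the median) and the 6 Fc receptor genes (red), young left and old right. In old mice the microglia median is 0.03 and the monocyte and macrophage median 3.5, with the receptor genes other than Fcgrt between 1.84 and 5.15.

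By Euclidean distance between mean-centred log2 values over the 4 libraries, among 13892 protein-coding genes, the genes most like each receptor gene were as follows. For Fcgr1 they were Lpxn (distance 0.106), Recql4, Naip5, Trim56 and Ctss, and for Fcgr2b Myof (0.0981), Ccl22, Tnfaip2, Trim5 and Parp3. For Fcgr3 they were Pdcd11 (0.0498), Scpep1, Rrbp1, Tgfb1 and Tmem176a, and for Fcer1g Cebpd (0.0992), Irf9, Tbx1, Nrm and Shroom4. Fcgr4 had no near match as measured: its closest were Tap1 (0.515), Gbp4, Ifi47, Itgax and Tgtp2. Its naive values rest on 1 and 9 fragments, and the young naive one (0.0389 FPKM) lies below the pseudocount of 0.1. All distances of Fcgr4 are therefore known only roughly. The likest genes of Fcgrt were Zzz3 (0.021), Gdpgp1, Tbccd1, Bcl2l1 and Cep83, all of which were lowest in the old tumor-bearing library as deposited. Among the 6 themselves, Fcgr1 and Fcer1g lay closest (0.296) and Fcgr4 and Fcgrt farthest apart (5.61).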

How the data were processed

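Poly-A RNA was sequenced as paired-end libraries, per the labels' protocols, and the authors deposited 1 column of FPKM a library, per the file headers. Per the submitters' processing notes, alignment used HISAT2 and the build was mm10. How fragments were counted, the annotation, filters and pooling are not given in the sources used here, and the labels' protocols describe both a directional and a non-directional preparation, so antisense fragments cannot be told apart. Symbols and exon lengths came from GENCODE M21, which named 54409 of 54532 genes.

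FPKM times summed exon length gave whole fragments in all 4 libraries for 97.2% of 32801 genes above 0 (tolerance 0.03 fragments or 2e-05 of the value, whichever is larger), the 6 receptor genes among them. Csf1r was not among them, so ratios against it rest on rounded fragments. The FPKM are not counts, and with 1 library a group no count test was run. Folds are FPKM ratios without pseudocount, with exact conditional binomial 95% intervals of the fragments. Ratios of 2 folds have normal-approximation intervals. Log2 ratios use a pseudocount of 0.1, and a gene is called at 2-fold and 1 FPKM or more in at least 1 library. Marker, pathway and neighbour genes were named by a rule: up to 4 measured genes of each list with the largest old difference, a short set of central genes, the 5 nearest genes by distance, and the chromosome 1 neighbours, of which those past 2-fold are named. Outside it fall Ifng, Ighm, Ighg1, Ighg2c, Ighg3, Fcer1a, Fcmr, Pigr, Sirpa, Kit, Fn1, Cd163, Eomes, Ncr1, Klrb1c and Klre1. They were named after their values were seen. The genes and lists were chosen with earlier results of these data known. Scripts ran in Python 3.11.15 with numpy 2.4.6, pandas 2.3.3, scipy 1.17.1 and Biopython 1.88, and were tested on simulated data. Some genes covered by the rule are not reported here.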

Additional observations from a re-analysis of the deposited data

Results flagged for a closer look

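A few genes near or behind the receptors had log2 differences of opposite sign in the groups compared, each beyond counting error as deposited. The difference between the groups was not tested, since each group has 1 library. Sall1, a microglial transcription factor, had a tumor-bearing over naive log2 ratio of 0.44 in young and -1.0 in old mice. For old over young, Arpc1b was -0.23 in naive and 3.15 in tumor-bearing tissue, and Prkcd, a kinase of the activating list, was -2.35 and 0.34. Among the chromosome 1 neighbours, old over young in naive and tumor-bearing tissue, Klhdc9 was 0.48 and -1.32, Pcp4l1 0.41 and -1.52, and Tomm40l 0.22 and -1.13. Scaling to equal FPKM totals shifts the naive comparison by -0.23, which ends the opposite sign of Tomm40l. As deposited, the naive fold intervals were 1.05 to 1.89 for Klhdc9 and 1.01 to 1.34 for Tomm40l. Both include 1 by fragments in genes, which multiplies the naive folds by 0.908.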

How the results depend on the processing

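Counts of genes at 2-fold or more depended on the settings in these cases: in young mice 2 of 6 were higher by median of ratios, 1 with a pseudocount of 1 and 0 with a floor of 5 FPKM, and between naive libraries 1 (Fcgr4) was higher without a floor. In old mice, and between the tumor-bearing libraries, the count stayed within 1.5 times under every alternative run. The log2 age-by-tumor difference became 2.3 for Fcgr2b by fragments in genes. Under equal FPKM totals, fragments in genes, median of ratios, and without mitochondrial genes and the 50 highest, it was 1.76, 1.91, 1.81 and 1.84 for Fcgr3, 2.27, 2.41, 2.32 and 2.34 for Fcer1g, and 0.12, 0.26, 0.16 and 0.19 for Fcgrt. Counting Fcgr2b and Fcgr3 together gave 82.6%, 69.8%, 80.7% and 54.7% of receptor FPKM in young naive, then young tumor-bearing, then old naive, then old tumor-bearing tissue. Longest coding transcript lengths, chosen after seeing the data, gave Fcgr3 42.9% in old tumor-bearing tissue, and activating over inhibitory ratios of 8.23, 5.33, 6.42 and 4.12. Windows of 50 bases, also chosen after seeing the data, gave 6.95% for Fcgr2b, over 146 other genes, and 9.58% for Fcgr3, all in Fcgr2b. The cause of these moves was not tested. Depth limits Fcgr4 most, with 1 and 9 fragments in the naive libraries. No paired analysis was possible because each group has 1 library.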

Other observations

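Fcgr2b, Fcgr3, Fcgr4 and Fcgrt each overlap another annotated gene, and hardly any fragments were assigned to those: the antisense gene Gm38204 of Fcgr2b had 0, 1, 0 and 5 fragments in young naive, then young tumor-bearing, then old naive, then old tumor-bearing tissue, the small nuclear RNA gene Gm26110 within Fcgr4 had 1 fragment in the old tumor-bearing library alone, and Gm45669 and Mir6546 had 0 throughout. Among the remaining Fc receptors, Fcer1a, the IgE-binding chain that pairs with Fcer1g, was listed at 0 in 3 libraries and at 0.689 FPKM in old tumor-bearing tissue. Fcmr, the IgM receptor, was at 0.0845, 0.115, 0 and 0.793 FPKM. Pigr was at or near 0 in all 4.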
